A study of Mus musculus with 6 samples.

Results

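The miR-181 family consists of mmu-miR-181a, mmu-miR-181b, mmu-miR-181c and mmu-miR-181d. Its members were found by name in a small RNA sequencing (sRNA-Seq) table of known miRNAs, taking every arm and every locus. They amounted to 9 mature strands, 4 from the 5p arm and 5 from the 3p arm of their hairpins, out of 535 mature miRNAs in all. The libraries came from CD1 mouse embryos at embryonic day 15.5, with no genetic alteration or treatment in either group. One group was nephrogenic mesenchymal cells enriched for nephron progenitors (MNP1, MNP2 and MNP6), obtained by depleting cells that carry CD140a, CD105, Epcam or Ter119 with magnetic beads. The other was whole kidney (MWK1, MWK2 and MWK6), made from the kidneys left over after the limited digestion. Per the study's methods both groups came from 3 litters, and the progenitor isolate is known to carry some renal stroma. The sample labels name one RNA purification kit, miRNeasy Micro, for every sample, whereas the study's methods give miRNeasy Mini for whole kidney. The cell isolation, and the kit if it differed, cannot be told apart from the cell type.

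A miRNA is cut from a hairpin precursor, and one or both arms of the hairpin (5p and 3p) are loaded into the silencing complex, which is guided to target mRNAs mainly by the seed, the bases from position 2 to position 8. The miR-181 family is a conserved vertebrate family that is best known from developing lymphocytes, where miR-181a sets the sensitivity of T cell receptor signalling, and from vascular endothelium, where miR-181b dampens inflammatory signalling. Nephron progenitors are the Six2-expressing mesenchymal cells of the outer kidney, which turn into the epithelium of the nephron.

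The 9 strands come from 6 hairpins in 3 clusters. In mm10 coordinates, mir-181a-1 (137966455 to 137966541) and mir-181b-1 (137966639 to 137966718) lie 97 bp apart on the plus strand of chromosome 1, inside an intron of the noncoding transcript Gm4258. By the GENCODE annotation of the same assembly, an exon of the long noncoding RNA A430106G13Rik on that strand holds mir-181b-1 and overlaps the end of mir-181a-1. The cluster of mir-181a-2 (38852735 to 38852810) and mir-181b-2 (38853830 to 38853918) is on the plus strand of chromosome 2, with 1019 bp between the hairpins. It lies within an intron of the nuclear receptor gene Nr6a1, which is transcribed from the other strand. By the same annotation, an exon of Gm44144, also on the minus strand, holds mir-181b-2. The hairpins of mir-181c (84178873 to 84178961) and mir-181d (84178716 to 84178787) lie 85 bp apart on chromosome 8, within an intron of the germ cell gene Nanos3, and share its orientation (minus strand). The 3p strand of mir-181d was not analysed here.

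**Figure D1:**
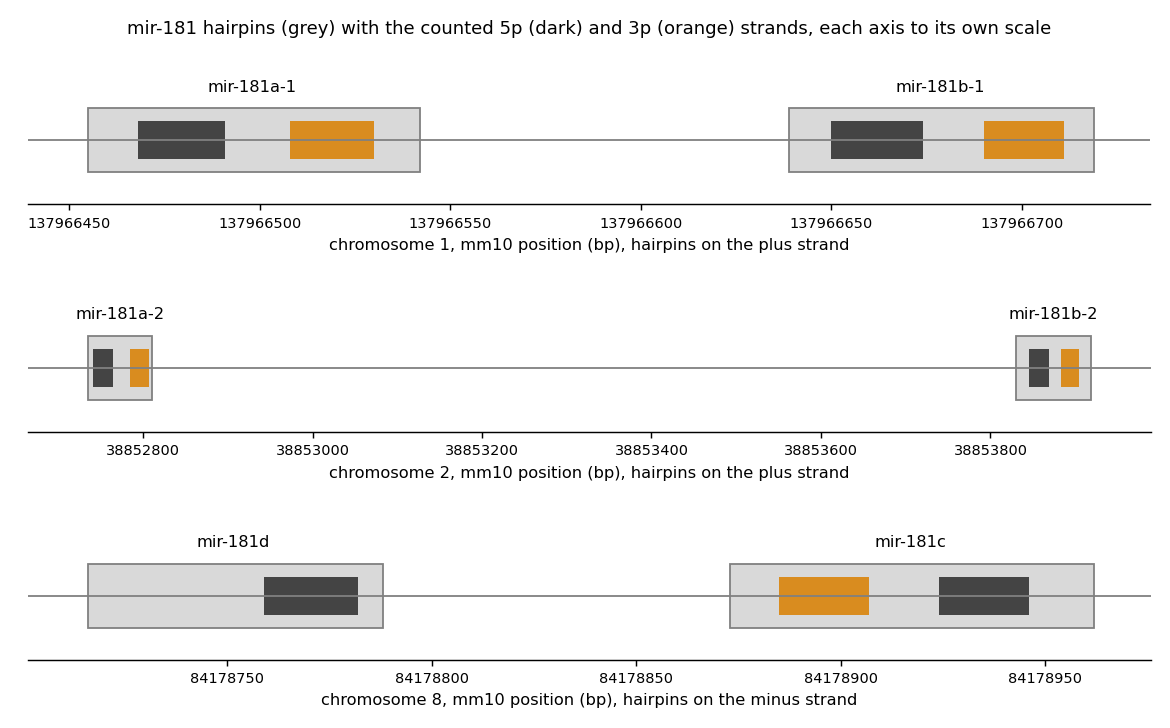
Positions of the 6 mir-181 hairpins on chromosomes 1, 2 and 8 (horizontal axes, mm10 position in bp, each axis to its own scale), with the counted 5p strands in dark and 3p strands in orange. The hairpins of a cluster lie 97, 1019 and 85 bp apart, and mir-181d has a counted 5p strand only.

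The mature sequences show which strands can be traced to one locus. All 9 matched an entry in RefSeq (GRCm38.p6), and they are written here 5′ to 3′ with the seed in capitals.
miR-181a-5p: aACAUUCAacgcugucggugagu
miR-181b-5p: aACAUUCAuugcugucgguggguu
miR-181c-5p: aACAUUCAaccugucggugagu
miR-181d-5p: aACAUUCAuuguugucggugggu
miR-181a-1-3p: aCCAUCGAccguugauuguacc
miR-181a-2-3p: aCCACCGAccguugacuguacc
miR-181c-3p: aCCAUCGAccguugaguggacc
miR-181b-1-3p: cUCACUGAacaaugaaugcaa
miR-181b-2-3p: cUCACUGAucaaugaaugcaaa
The 4 strands of the 5p arm share the seed ACAUUCA, which no other mature miRNA of the RefSeq table has. miR-181d-5p differs from miR-181b-5p by 1 substitution, C12U with positions counted from the 5′ end, and by 1 base at the 3′ end. miR-181c-5p and miR-181a-5p are closer still, at 1 edit. Reads within either pair could be hard to keep apart, which was not tested. miR-181a-5p and miR-181b-5p are each made by 2 loci, on chromosomes 1 and 2, and the mature sequence alone does not assign their reads to either. The 3p strands are different at each locus: miR-181a-1-3p and miR-181a-2-3p are separated by U5C and U16C, the first of which lies in the seed. miR-181a-1-3p has instead the same seed as miR-181c-3p, from which it differs by U16G and U19G. Only the 3p strands therefore read out the clusters on chromosomes 1 and 2 separately.

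The row with the highest count was kept for each mature miRNA, after which the libraries MNP1, MNP2 and MNP6 held 393951, 436112 and 333850 counts, and MWK1, MWK2 and MWK6 held 349241, 360221 and 355848. The miR-181 strands took 1.54%, 1.51% and 1.56% of these counts in the nephron progenitor libraries and 1.00%, 0.979% and 1.05% in the whole kidney libraries, in the same order, so the groups did not overlap. In CPM, counts relative to the total of their library as scaled with edgeR's TMM, the 9 strands summed to 14307 ± 615 in nephron progenitors, against 10836 ± 279 for whole kidney (SD, n = 3 each). The 5p strands made up 94.1% ± 0.0939 of this sum in nephron progenitors, and for whole kidney 93.6% ± 0.452. In these bulk samples, fewer cells of a type and less RNA per cell cannot be told apart.

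In the comparison of nephron progenitors with whole kidney, 2 of the 9 strands (5 with library totals in place of TMM, where 23.0% of all miRNAs tested were called higher) were past the threshold, both higher in nephron progenitors: miR-181a-5p and the chromosome 2 strand miR-181a-2-3p. The threshold was an adjusted p of 0.05 in the quasi-likelihood test of edgeR, after Benjamini-Hochberg adjustment over the 525 miRNAs tested. Of all miRNAs tested, 102 of 525, or 19.4%, were called higher, so a count of 2 of 9 is near the background. For 4 of the 9 strands all nephron progenitor libraries lay above all whole kidney libraries in CPM, compared with 23.4% of all miRNAs tested. The log2 fold change was positive for 7 of the 9, with a median of 0.33 beside -0.01 over all 525. All 9 passed the filter on low counts.

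**Figure D2:**
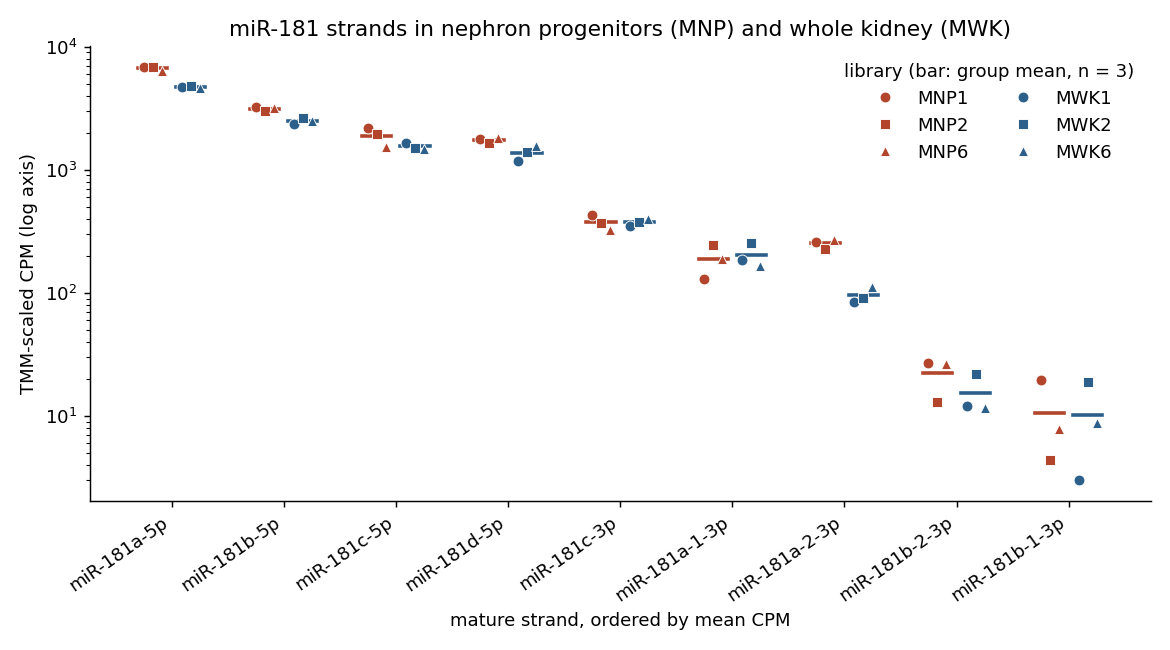
TMM-scaled CPM (vertical, log axis) of the 9 miR-181 strands (horizontal, ordered by mean CPM) in each nephron progenitor (MNP, red) and whole kidney (MWK, blue) library, with a bar at each group mean (n = 3). The red and blue points are farthest apart for miR-181a-2-3p, with means of 254 and 95.5 CPM, while those of miR-181a-1-3p, miR-181c-3p and the miR-181b 3p strands intermix.

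miR-181a-5p was the most abundant member and ranked 31 of 525 by mean CPM. It was at 6835, 6849 and 6323 CPM in MNP1, MNP2 and MNP6 and at 4712, 4799 and 4641 CPM in MWK1, MWK2 and MWK6. Every nephron progenitor library thus lay above every whole kidney library, and the gap between the groups was larger than the spread within either. The log2 fold change was 0.50 (standard error 0.14, adjusted p = 0.0126 by the quasi-likelihood test of edgeR), a 1.41-fold higher level in nephron progenitors. This call lay close to the threshold: the adjusted p was 0.0508 without MNP2, 0.0607 without MWK1 and 0.0505 without MWK2, with log2 fold changes of 0.46, 0.50 and 0.50, and over the 17 alternative fits it ran from 0.00107 to 0.0607. Its rows for mir-181a-1 and mir-181a-2 held nearly the same counts, at most 0.255% apart in any library, as the mature sequence is identical at both loci.

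miR-181b-5p, which comes from the same clusters, was at 3211, 3017 and 3188 CPM in MNP1, MNP2 and MNP6. In MWK1, MWK2 and MWK6 it was at 2361, 2639 and 2484 CPM. The groups did not overlap, yet the log2 fold change of 0.33 (standard error 0.15) was not past the threshold, with an adjusted p of 0.115 by the quasi-likelihood test of edgeR. In 3 of the 17 alternative fits miR-181b-5p was past it. These used library totals (0.54), more than 10 counts in every library (0.39) and the sum over its rows (0.38). The rows for its loci differed by between 2.27% and 5.41% of the higher one, and the mir-181b-2 row was the higher in every library.

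The 5p strands of the chromosome 8 cluster were lower in abundance. miR-181c-5p was at 2204, 1952 and 1540 CPM in MNP1, MNP2 and MNP6 and at 1666, 1511 and 1468 CPM in MWK1, MWK2 and MWK6. MNP6 lay within the range of the whole kidney libraries, so the groups overlapped. The log2 fold change was 0.29 (standard error 0.18, adjusted p = 0.25 by the quasi-likelihood test of edgeR). It was 0.18 without MNP1 and 0.39 without MNP6. miR-181d-5p was at 1792, 1651 and 1813 CPM in the nephron progenitor libraries and at 1179, 1392 and 1565 CPM in the whole kidney libraries. Here the groups did not overlap, although MWK6 came close to MNP2, and the log2 fold change of 0.35 (standard error 0.17) had an adjusted p of 0.146 in the same test. Read sharing between miR-181d-5p and miR-181b-5p, or between miR-181c-5p and miR-181a-5p, was not tested.

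The calls of 3 of the 5p strands depended on which scaling was used. With DESeq2's size factors in edgeR they were not past the threshold, as with TMM, and 2 of the 9 strands were called, beside 103 of 525 miRNAs called higher. With library totals in place of TMM, the median log2 fold change of all miRNAs moved up by 0.20, and miR-181b-5p, miR-181c-5p and miR-181d-5p were then past the threshold as well, with log2 fold changes of 0.54, 0.49 and 0.55 and 5 of the 9 strands called, beside 121 of 525 miRNAs called higher in the same fit. Relative to the median of all miRNAs, the median of the 9 strands lay 0.34 higher with TMM and 0.35 higher with library totals.

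The 3p strands of mir-181a give a value for each locus. miR-181a-2-3p, from chromosome 2, was at 261, 229 and 271 CPM in MNP1, MNP2 and MNP6. It was at 84.2, 91.3 and 111 CPM in MWK1, MWK2 and MWK6. The lowest nephron progenitor library was thus more than double the highest whole kidney library. Its log2 fold change was 1.40 (standard error 0.23, adjusted p = 0.000376 by the quasi-likelihood test of edgeR), a 2.64-fold higher level, and it was past the threshold in each of the 17 alternative fits. miR-181a-1-3p, from chromosome 1, was at 130, 246 and 189 CPM in the nephron progenitor libraries and at 183, 255 and 166 CPM in the whole kidney libraries. Its groups overlapped over most of their range. The log2 fold change was -0.09 (standard error 0.27, adjusted p = 0.846 in the same test), and its sign turned with library totals, to 0.12, without MNP1, to 0.12, and without MWK2, to 0.10.

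The shares of the loci rest on small counts. Of the 3p counts of both mir-181a loci, the chromosome 2 strand held 106 of 159 in MNP1, which is 66.7% (95% Wilson interval 59.0 to 73.5). It held 105 of 218 in MNP2, or 48.2% (41.6 to 54.8), and 103 of 175 in MNP6, or 58.9% (51.5 to 65.9). In whole kidney the share was 31.5% in MWK1 (28 of 89, interval 22.8 to 41.7), 26.4% in MWK2 (29 of 110, interval 19.0 to 35.3) and 40.0% in MWK6 (38 of 95, interval 30.7 to 50.1). The shares did not overlap between the groups, although the interval of MNP2 overlapped those of MWK1 and MWK6. These intervals cover counting error only, since reads without molecular identifiers are not independent molecules.

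**Figure D3:**
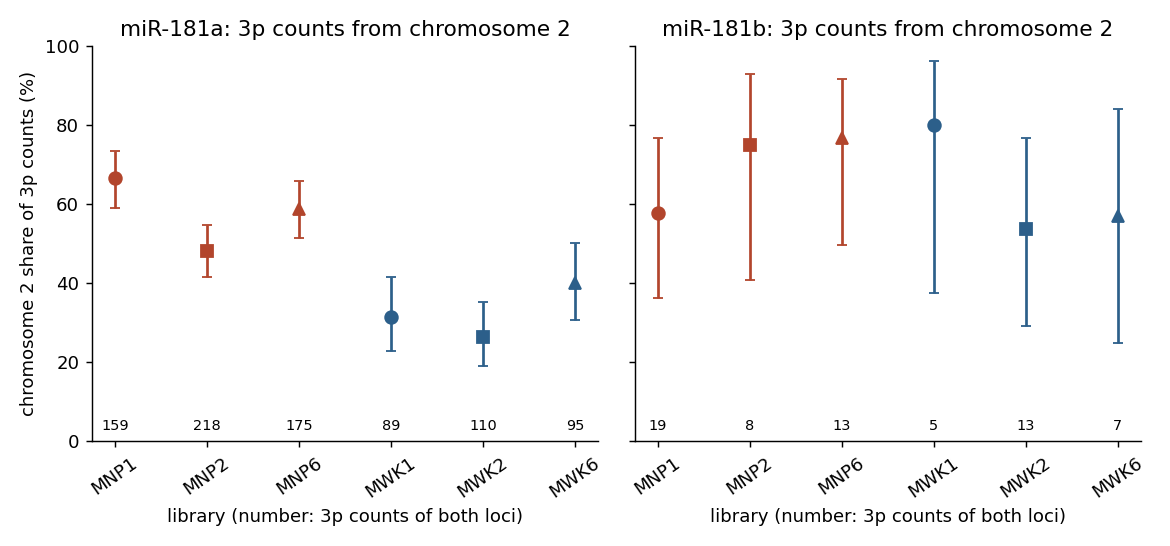
Share of 3p counts that came from the chromosome 2 locus (vertical, %) in each library (horizontal), for miR-181a on the left and miR-181b on the right, with 95% Wilson intervals as bars and the 3p counts of both loci printed below each point. For miR-181a the nephron progenitor libraries (red) are at 48.2% or above and the whole kidney libraries (blue) at 40.0% or below, while the miR-181b shares rest on 5 to 19 counts and intermix.

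A ratio of 2 strands within one library does not depend on how libraries are scaled. The log2 ratio of miR-181a-1-3p to miR-181a-2-3p was -0.99, 0.11 and -0.51 in MNP1, MNP2 and MNP6, against 1.11, 1.47 and 0.58 in MWK1, MWK2 and MWK6. The means differed by -1.52, and the groups did not overlap. This gave p = 0.1 in an exact two-sided permutation test, the smallest p that 3 against 3 libraries allow, and an adjusted p of 0.45 over the 9 ratios computed, so this test cannot bring it past 0.05. Without any one library the difference was between -1.81 and -1.26.

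Summed over both loci, the 3p strands of mir-181a were at 442 ± 44.5 CPM in nephron progenitors, against 297 ± 42.9 CPM for whole kidney (mean ± SD of 3 libraries). They amounted to 6.65% ± 0.812 of the miR-181a-5p counts in nephron progenitors, against 6.29% ± 0.816 for whole kidney, a difference within the spread of the libraries. The shares of the loci within these 3p counts, by contrast, did not overlap between the groups.

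The 3p strands of mir-181b had few counts. miR-181b-2-3p, from chromosome 2, had 11, 6 and 10 counts in MNP1, MNP2 and MNP6, against 4, 7 and 4 in MWK1, MWK2 and MWK6. miR-181b-1-3p, from chromosome 1, had 8, 2 and 3 counts and then 1, 6 and 3, in the same order. A floor of 3 counts corresponds to between 6.88 and 8.99 CPM of a library's total. Group means follow for nephron progenitors, then whole kidney. miR-181b-2-3p, at 22.14 and 15.25 CPM, lay above the floor in every library, while miR-181b-1-3p, at 10.65 and 10.22 CPM, was near it. Their groups overlapped, with log2 fold changes of 0.52 and 0.05 (standard errors 0.49 and 0.76) and adjusted p of 0.479 and 0.973 by the quasi-likelihood test of edgeR. The value of miR-181b-2-3p was 0.34 without MNP1 and 0.86 without MWK2. Over the 4 numbered libraries it was 0.19 without and 0.18 with a block for the replicate number. That of miR-181b-1-3p ran from -0.72 without MNP1 to 0.79 without MWK2. The log2 ratio of miR-181b-1-3p to miR-181b-2-3p, at -1.13 ± 0.612 for nephron progenitors and -0.72 ± 0.755 for whole kidney, overlapped between the groups, as did that of miR-181a-1-3p to miR-181b-1-3p, with exact two-sided permutation p of 0.5 and 1. The log2 ratio of miR-181a-2-3p to miR-181b-2-3p did not overlap, at 3.51 ± 0.444 and 2.58 ± 0.565 (exact two-sided permutation test, p = 0.1, n = 3 each), but rests on these few miR-181b counts.

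miR-181c-3p was the most abundant 3p strand. It was at 431, 368 and 323 CPM in MNP1, MNP2 and MNP6 and at 349, 378 and 397 CPM in MWK1, MWK2 and MWK6, so the nephron progenitor libraries lay on both sides of the whole kidney libraries. The log2 fold change was -0.0015 (standard error 0.20, adjusted p = 0.996 by the quasi-likelihood test of edgeR), and it was 0.20 with library totals. It stood at 19.8% ± 1.09 of the miR-181c-5p counts in nephron progenitors, against 24.3% ± 3.11 for whole kidney, a much larger 3p part than for mir-181a or mir-181b, whose 3p strands were at 1.04% ± 0.441 and 1.00% ± 0.483 of miR-181b-5p. The log2 ratio of miR-181c-5p to miR-181c-3p overlapped between the groups (exact two-sided permutation test, p = 0.2, n = 3 each).

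The order of the levels was nearly the same in both groups. All strands are between 21 and 24 bases long and one read covers a strand, so counts were set side by side without a length correction. How evenly different strands are captured in a library was not tested. miR-181a-5p came first and miR-181b-5p second, each apart from the next by more than the spread of the libraries. miR-181c-5p and miR-181d-5p did not differ beyond their spread in either group, at 1898 ± 335 and 1752 ± 88.1 CPM in nephron progenitors, then 1549 ± 104 and 1378 ± 193 CPM for whole kidney. miR-181c-3p followed. Below it miR-181a-2-3p and miR-181a-1-3p overlapped in nephron progenitors, whereas in whole kidney miR-181a-1-3p, at 202 ± 47.1 CPM, lay above miR-181a-2-3p, at 95.5 ± 13.8 CPM, in every library.

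In the 5p pool, which carries the shared seed, the strands kept the same order of mean share in both groups. miR-181a-5p made up 49.6% ± 1.14 of it in nephron progenitors, against 46.5% ± 0.919 for whole kidney, and miR-181b-5p made up 23.3% ± 1.26 and 24.6% ± 0.866. For miR-181c-5p the shares were 14.1% ± 1.90 and 15.3% ± 1.31, and for miR-181d-5p 13.04% ± 0.948 and 13.6% ± 1.76. The share of miR-181a-5p was higher in each nephron progenitor library than in any whole kidney library, and the shares of the other strands overlapped. Of the ratios between 5p strands, miR-181a-5p to miR-181b-5p had a mean log2 value of 1.09 ± 0.0974 for nephron progenitors and 0.92 ± 0.0691 for whole kidney, and these overlapped by a narrow margin (exact two-sided permutation test, p = 0.2, n = 3 each). The ratios of miR-181a-5p to miR-181c-5p, of miR-181b-5p to miR-181d-5p and of miR-181c-5p to miR-181d-5p also overlapped, with exact two-sided permutation p of 0.3, 0.9 and 0.8.

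The miRNAs most like each 5p strand were found among 279 miRNAs outside the family with a mean of at least 50 CPM, by the root mean square difference of log2 CPM over the 6 libraries after centring each miRNA on its mean. The groups themselves are part of this likeness, so it is given as a description. For miR-181a-5p they were miR-125a-5p (0.0779), let-7e-5p (0.108), let-7a-5p (0.111), let-7c-5p (0.121) and miR-152-3p (0.130). For miR-181b-5p they were miR-152-3p (0.0912), miR-532-5p (0.0967), miR-99b-3p, miR-152-5p and let-7i-5p (0.106). miR-181c-5p was nearest to let-7a-5p (0.0910), followed by miR-149-5p, miR-26a-5p, let-7i-5p and miR-140-5p (0.146). miR-181d-5p was nearest to miR-99b-3p (0.0855), followed by miR-423-5p, miR-361-5p, miR-532-5p and miR-574-5p (0.135). Within the family the closest pair was miR-181b-5p with miR-181d-5p (0.103), and the pair from the chromosome 8 cluster, miR-181c-5p with miR-181d-5p, was the farthest apart (0.244), with 43 miRNAs outside the family closer to miR-181c-5p than miR-181d-5p was.

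Marker miRNAs of other cell types were measured in the same libraries. The lists hold chosen arms of each miRNA, and their other arms, where tested, were looked up after the values had been seen. The epithelial miR-200 list fell, with 5 of 5 members lower past the threshold in edgeR's test, compared with 17.1% of all miRNAs called lower. Its summed level was 214, 366 and 86.7 CPM in MNP1, MNP2 and MNP6 and 23365, 24831 and 21253 CPM in MWK1, MWK2 and MWK6. miR-200a-3p was its most abundant member, and miR-141-3p had no count in nephron progenitors, which allows up to 3 counts in a library, beside 33 counts in whole kidney. The other arms tested, miR-200a-5p and miR-200b-5p, were also lower past the threshold. Endothelial miR-126a fell in 2 of 2 strands. Its sum, most of it miR-126a-3p, was 419, 595 and 578 CPM in the nephron progenitor libraries and 20133, 21311 and 18150 CPM in the whole kidney libraries. Markers of the depleted epithelial and endothelial cells were thus low in every nephron progenitor library, though not at 0 as sums. Their part in the miR-181 levels was not tested.

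Over all miRNAs tested, edgeR called 19.4% higher and 17.1% lower in nephron progenitors. Of the lineages in which miR-181 is best known, the haematopoietic and immune list (both arms of miR-142a, with miR-150-5p, miR-155-5p, miR-223-3p and miR-146a-5p) had 0 of 6 strands called by edgeR. The arm left out of it, miR-223-5p, was called higher in nephron progenitors (adjusted p = 0.00501 in edgeR), at 9.85, 17.4 and 18.4 CPM in MNP1, MNP2 and MNP6 and at 0 in every whole kidney library, where up to 3 counts in a library are allowed. For the 6 strands listed, the count was also 0 at an unadjusted p under 0.05 in edgeR, and DESeq2 and limma-voom likewise called 0 of 6. Without MNP6, miR-142a-3p was past the threshold, higher in nephron progenitors, with a log2 fold change of 1.10 and an adjusted p of 0.0114 in edgeR. Over the 4 numbered libraries it was also past it, with adjusted p of 0.0374 without and 0.0414 with a block for the replicate number in edgeR, while miR-223-5p, still at 0 in the whole kidney libraries among these, was not, with 0.0682 and 0.085 from fewer libraries. The sum of the list was 217, 200 and 94.6 CPM in MNP1, MNP2 and MNP6 and 204, 220 and 128 CPM in MWK1, MWK2 and MWK6, with miR-146a-5p the most abundant. The groups overlapped. The part of RNA from these cells in the miR-181 levels was not tested. The erythroid list (miR-451a, both arms of miR-144, and miR-486a-5p) fell in 4 of 4 strands. The arm left out, miR-486a-3p, overlapped between the groups, with an adjusted p of 0.763 in edgeR. Led in whole kidney by miR-451a, the erythroid list summed to 382, 281 and 176 CPM in MNP1, MNP2 and MNP6. In MWK1, MWK2 and MWK6 it summed to 1488, 1474 and 762 CPM.

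The stromal and smooth muscle list, led by miR-143-3p, had 2 of 5 members past the threshold, both lower in nephron progenitors. These were miR-143-3p, with a log2 fold change of -1.33, and miR-145a-5p, with -1.86. Of all miRNAs tested, 17.1% were called lower. The list summed to 33782, 45277 and 46056 CPM in MNP1, MNP2 and MNP6 and to 73673, 85327 and 70887 CPM in MWK1, MWK2 and MWK6, so the groups did not overlap. miR-199a-3p, miR-199a-5p and miR-214-3p had log2 fold changes of 0.23, 0.40 and 0.17, with adjusted p of 0.312, 0.164 and 0.651 by the quasi-likelihood test of edgeR. Without MNP1, miR-199a-3p and miR-199a-5p were past the threshold, higher in nephron progenitors by 0.36 and 0.62 on the log2 scale, and miR-199a-3p was with library totals, by 0.44. Of the miRNAs outside the list, miR-199b-5p, named after its value was seen, was called higher in nephron progenitors, at 2900.3, 3475 and 3479 CPM in MNP1, MNP2 and MNP6 and at 1861, 2063 and 1778 CPM in MWK1, MWK2 and MWK6 (log2 fold change 0.79, adjusted p = 0.00184 in edgeR). The other arms tested, miR-143-5p, miR-145a-3p and miR-214-5p, were not called. In the skeletal muscle list, which summed to 300.4, 438 and 131 CPM in the nephron progenitor libraries and to 66.2, 113 and 61.3 CPM in the whole kidney libraries, 1 of 3 was past the threshold, higher in nephron progenitors: miR-206-3p was at 187, 281 and 65.7 CPM in MNP1, MNP2 and MNP6 and at 0, 15.7 and 2.92 CPM in MWK1, MWK2 and MWK6. Beside the 1 of 3 in the skeletal muscle list, 19.4% of all miRNAs tested were called higher. The part of stromal or muscle RNA in the miR-181 levels was not tested.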

How the data were processed

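Small RNAs were sequenced from 3 nephron progenitor and 3 whole kidney samples. Per the study's methods, the authors trimmed adapters, aligned reads to mm10 with Bowtie2 (2.2.3 by the submitters' processing notes) and counted known miRNAs of miRBase with miRDeep2, and the deposited values are expected counts (estimated counts) per mature miRNA and precursor. The tests had been designed for counts, and expected counts were rounded to whole numbers, which touched 3 of 792 rows. Where a mature miRNA had several rows, the highest per library was kept. The columns MNP6 and MWK6 match no single sample title, so each was used under its group name with no replicate number. Per the study's methods both groups came from 3 litters, so samples of the groups can share a litter, and must if each came from a single litter. Which ones do is not stated in the sources used here, and the tests treated the 6 samples as independent.

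Libraries held between 333850 and 436112 counts. In R 4.3.3, miRNAs whose counts totalled above 10 across the 6 libraries were scaled with TMM and tested with edgeR 4.0.16 (glmQLFit, glmQLFTest), with Benjamini-Hochberg adjustment over 525 miRNAs. The standard error is the log2 fold change over the root of F. Log2 ratios of strands within a library, with 0.5 added to each count, were compared with exact permutation tests. Log2 CPM for likeness used a prior count of 2. The procedure was tested on simulated data.

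Alternatives were DESeq2 1.42.0, limma-voom (limma 3.58.1), other scalings, filters and row rules, removal of the 10 most abundant miRNAs, leaving out each library, and a replicate block; taking the lowest row was chosen after seeing the data. The miRNAs named are all miR-181 strands, the 5 miRNAs most like each 5p strand, and marker lists of other cell types. The members and lists were chosen with earlier results of these data known. Hairpin positions were set against the GENCODE annotation of mm10, and sequences were read from RefSeq (GRCm38.p6). Figures were drawn with matplotlib 3.10.9.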

Additional observations from a re-analysis of the deposited data

How the results depend on the processing

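Over 17 alternative fits, miR-181a-2-3p was past the threshold in 17, with log2 fold changes from 1.32 to 1.61. miR-181a-5p was past it in 14, from 0.49 to 0.70. The exceptions were among the fits that left out a library, over which it ranged from 0.46 to 0.50. With library totals in place of TMM 5 miR-181 strands were called, all higher in nephron progenitors, beside 121 of 525 miRNAs called higher (23.0%), with log2 fold changes of 0.54 for miR-181b-5p, 0.49 for miR-181c-5p and 0.55 for miR-181d-5p. The median over all miRNAs was then 0.19, beside -0.01 with TMM. miR-181b-5p was also past the threshold with more than 10 counts required in every library (0.39) and with the sum over its rows (0.38). Leaving out a library gave 1 to 2 miR-181 strands called. Among all miRNAs 192 were called, and 120 with more than 10 counts required in every library, where 260 were tested and both miR-181b 3p strands were left out. Taking the lowest row, chosen after seeing the data, left miR-181a-5p at 0.51. With the 4 numbered libraries, a block for the replicate number left 2 miR-181 strands called higher beside 71 of 487 miRNAs, and the fit without it 2 beside 58 of 487; the differences between replicates 1 and 2 had a correlation of 0.0813 between groups across 487 miRNAs, which are not independent replicates. The cause of these changes was not tested. The difference in the log2 ratio of miR-181a-1-3p to miR-181a-2-3p stayed between -1.81 and -1.26 over 8 alternatives. Depth limits the miR-181b 3p strands most, with at most 11 counts in a library.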
